A study of Mus musculus with 4 samples.

Results

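A group of 10 genes of granulocyte and B cell precursors was followed in the mouse tooth germ, in dental follicle and papilla at PN2 and E17, as the labels write these stages. Its genes are Fcnb, Chil3, Cd177 and Padi4 of the neutrophil lineage, Mcpt8 and Hdc of basophils and histamine synthesis, the progenitor transcription factor Myb, and Cd79a, Cd79b and Igll1 of the B lineage. They were chosen by name from lists for marrow cells after their signals on these same arrays were known, so they were selected on the measurements given here, and their values are a description with no test. The 10 genes, read by 15 probes, stand among 16039 genes that the array names. In all, 14238 genes, the 10 among them, had a highest normalised signal of 100 or more and were compared.

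The dental follicle, DF in the labels, wraps the growing tooth and lies next to the jaw bone, and the papilla, P in the labels, is the inner mesenchyme from which dentin and pulp form. Total RNA of DF PN2, P PN2, DF E17 and P E17 was compared on 4 Agilent 2-colour arrays, which set follicle over papilla at each stage and PN2 over E17 in each tissue. The labels give no strain, age in other words than the stage, or number of pooled animals, and no treatment or genetic change, and 1 tissue entry says DF PN3 under a title that says DF PN2. Other label fields speak of a whole embryo and of cultured embryonic stem cells, and the sample titles were followed.

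Each tissue and stage had the same signals wherever it recurred, under different dye labels, so the data are 4 signal columns without replicates, and no p-value was computed. Whether a column is 1 hybridisation or a mean that the authors formed is not known. Of 10 tissue identity genes, themselves picked with earlier results of these data known, 4 were higher past 2-fold in the follicle (Igfbp5, Mmp13, Ibsp and Ogn) and 6 in the papilla (Sall3, Nebl, Sorcs3, Msx2, Fgf3 and Pax9), at both stages. The median deposited signal was 245 in DF PN2, 205 in P PN2, 290.3 in DF E17 and 352 in P E17. The 5th percentile of the deposited signals was 25.7 in DF PN2, 32.4 in P PN2, 37.5 in DF E17 and 66.4 in P E17. Values given are signals after quantile normalisation over the 4 columns, and ratios are log2 differences with the first-named tissue or stage on top. Higher or lower past 2-fold means a log2 ratio beyond 1 in size. The yardstick for technical spread is the pooled SD between probes of the same gene over 6749 genes with several probes. Between tissues it was 0.77 at PN2 and 0.58 at E17, and between stages 0.47 in the follicle and 0.65 in the papilla. Probes of a gene share the RNA and the signal column, so this SD covers no difference between animals, dyes or hybridisations. The 3 members with several probes had larger SDs of their own between the follicle stages (Padi4 1.75, Myb 1.85, Igll1 1.72). For the 7 members with 1 probe no own spread can be given.

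Neutrophils, basophils and B cells are made in the bone marrow in the adult and in the liver in the fetus. Neutrophil precursors fill their granules in order, primary granules first and secondary and tertiary granules later, under transcription factors of the C/EBP family and PU.1. B cell precursors test their new heavy chain with a pre-B receptor, in which the surrogate light chain (Igll1 with a Vpreb protein) stands in for the light chain and Cd79a with Cd79b carry the signal. Myb is needed by early precursors of many blood lineages and is switched down as they mature. In bulk tissue, fewer cells of a type and less RNA per cell cannot be told apart.

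Promoter windows are shown for 4 members, as annotated by RefSeq on build GRCm38.p6. Fcnb was the member with C/EBP matches, Mcpt8 had the highest PN2 over E17 ratio in the follicle, and Cd79a and Igll1 were the B lineage members higher in the follicle at PN2. Each line holds the 250 bases before the annotated start, 5′ to 3′ on the gene's strand, with motif matches in capitals. The windows lie at chr2:28084879-28085128 on the minus strand for Fcnb, chr14:56085198-56085447 on the minus strand for Mcpt8, chr7:24897247-24897496 on the plus strand for Cd79a and chr16:16863986-16864235 on the minus strand for Igll1.
Fcnb: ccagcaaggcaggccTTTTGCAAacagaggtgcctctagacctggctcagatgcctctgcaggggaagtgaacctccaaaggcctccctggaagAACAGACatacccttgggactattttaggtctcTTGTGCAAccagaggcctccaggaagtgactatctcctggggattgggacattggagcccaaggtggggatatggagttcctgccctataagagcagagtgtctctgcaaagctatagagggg
Mcpt8: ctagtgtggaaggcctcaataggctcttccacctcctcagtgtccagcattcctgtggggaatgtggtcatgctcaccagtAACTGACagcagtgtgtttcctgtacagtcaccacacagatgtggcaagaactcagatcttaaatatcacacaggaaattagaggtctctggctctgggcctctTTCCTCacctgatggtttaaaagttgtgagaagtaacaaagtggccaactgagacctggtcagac
Cd79a: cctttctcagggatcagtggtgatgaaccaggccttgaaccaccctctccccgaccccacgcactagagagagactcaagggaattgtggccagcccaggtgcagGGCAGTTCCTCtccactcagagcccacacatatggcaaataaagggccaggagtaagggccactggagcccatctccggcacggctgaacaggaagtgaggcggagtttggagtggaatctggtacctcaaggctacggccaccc
Igll1: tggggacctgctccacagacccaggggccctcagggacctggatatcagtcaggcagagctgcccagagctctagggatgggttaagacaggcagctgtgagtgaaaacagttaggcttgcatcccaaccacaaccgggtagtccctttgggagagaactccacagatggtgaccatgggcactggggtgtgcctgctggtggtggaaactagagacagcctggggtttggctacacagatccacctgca

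The motifs were GAGGAA for PU.1, TTGCNNAA for C/EBP, AACNGNC for MYB and, for EBF, TCCC and GGGA with any 2 bases between them, read on both strands of the 250 bases before and 50 after the start. Of the 10 members, 9 had such a window and Cd79b had none in the table used. The PU.1 letters were present in 4 of 9 windows (Cd177, Mcpt8, Cd79a and Igll1), against 28.3% of 32851 windows of the same length. MYB letters were present in 5 of 9 (Fcnb, Chil3, Cd177, Mcpt8 and Cd79a), against 32.8% of all windows. C/EBP letters were present in 1 of 9, Fcnb, against 10.8% of all windows, and EBF letters in 0 of 9, against 0.904%. Counting back from -1 just before the start, Fcnb held C/EBP letters at -235 to -228 and at -123 to -116 and MYB letters at -156 to -150. Mcpt8 held MYB letters at -169 to -163 and PU.1 letters at -65 to -60. In Cd79a the MYB letters at -145 to -139 overlapped the PU.1 letters at -140 to -135, and a second run of MYB letters lay at 6 to 12 after the start. The PU.1 letters of Igll1 lay at 26 to 31 after the start. Both of these runs are outside the bases printed. A match is a run of letters and not a measured binding site.

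Within the follicle, 8 of the 10 members were higher past 2-fold at PN2 than at E17, and 0 were lower. Among all 14238 genes compared, 3.83% were higher and 4.06% were lower past 2-fold in that comparison. The median log2 ratio of the members was 1.93, beside -0.01 over all genes. Hdc and Cd177 were the members short of 2-fold. As the members were picked with this comparison in view, nothing is read from the count itself.

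In the papilla the stages split the members, with 2 higher in P PN2 (Padi4 and Cd79b) and 2 lower (Mcpt8 and Cd177), against 6.55% and 5.09% of all genes. The median log2 ratio of the members was -0.47 there, beside -0.02 over all genes. The papilla counts depend on the scaling. With the deposited ratios 1 member was higher (Cd79b) and 1 lower (Mcpt8), against 6.88% and 3.57% of all genes. Padi4 and Cd177 then fell short of the limit. Between tissues at PN2, 5 members were higher in the follicle (Chil3, Mcpt8, Hdc, Cd79a and Igll1) and 1, Cd79b, was lower, against 12.8% and 13.4% of all genes. At E17 the count ran the other way, with 1 member higher in the follicle (Hdc) and 5 lower (Fcnb, Chil3, Cd177, Myb and Cd79b), against 10.5% and 10.1% of all genes. The median log2 ratio of follicle over papilla was 0.87 at PN2 and -1.01 at E17. The E17 papilla column has the highest 5th percentile of deposited signals of the 4, and its part in the E17 ratios of dim members was not tested. The name of marrow precursor genes is borne out unevenly, since Cd79b was higher past 2-fold in the papilla at both stages and Myb at E17. Fcnb and Cd177 also had their highest signal in P E17, but within the between-probe SD of DF PN2.

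**Figure D1:**
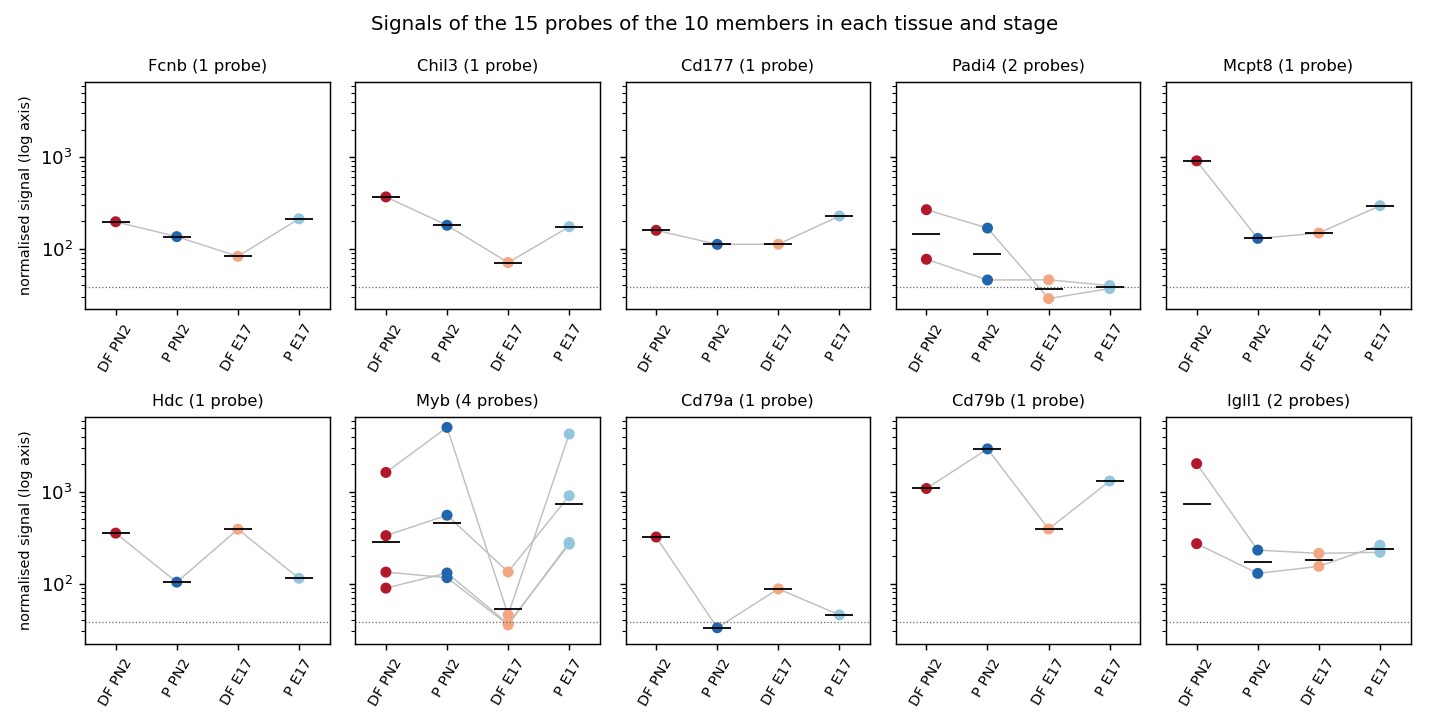
Normalised signal (log axis) of each probe of the 10 members in DF PN2, P PN2, DF E17 and P E17, with grey lines joining the columns of a probe, black bars for the mean over probes and a dotted line at the 5th percentile of all normalised signals, 37.9. Mcpt8, Cd79a and Igll1 stand highest in DF PN2, Hdc is high in both follicle columns, and Cd79b is highest in P PN2.

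Fcnb encodes ficolin-B, a secreted lectin of myeloid cells that recognises microbial sugars and can start complement activation. Its signal was 197 in DF PN2, 136 in P PN2, 82.7 in DF E17 and 212 in P E17. DF E17 was the lowest column and P E17 the highest. Fcnb was 2.38-fold higher in the follicle at PN2 than at E17 (log2 1.25) and 2.56-fold lower in follicle than in papilla at E17 (log2 -1.36). Between tissues at PN2 the log2 ratio was 0.54, inside the between-probe SD. No neighbours in the order of its 4 levels lay farther apart than that SD.

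Chil3, also called Ym1, is a secreted chitinase-like protein that neutrophil precursors and some macrophages make in the mouse. Its signal was 368 in DF PN2, 180.5 in P PN2, 70.7 in DF E17 and 174 in P E17. The papilla columns differed by less than the between-probe SD and lay between the follicle columns, with DF PN2 above them and DF E17 below. Chil3 was 5.2-fold higher in the follicle at PN2 than at E17 (log2 2.38), while P PN2 over P E17 was 0.05. The follicle over papilla ratio was 1.03 at PN2, just past the limit, and -1.30 at E17. A closely related copy, Chil4, exists in the mouse, and whether the single Chil3 probe tells them apart was not tested.

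Cd177 is a surface glycoprotein of neutrophils. The signal of its probe was 159 in DF PN2, 112 in P PN2, 112 in DF E17 and 228 in P E17. P E17 was the highest column, and DF PN2 over DF E17 came to a log2 ratio of 0.50, beside a between-probe SD of 0.47. Cd177 was lower past 2-fold in DF E17 than in P E17 (log2 -1.02) and in P PN2 than in P E17 (log2 -1.03), both just over the limit. With the deposited ratios both were short of it.

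Padi4 is the peptidylarginine deiminase that turns arginine of histones into citrulline when neutrophils release chromatin. Its mean signal over 2 probes was 143 in DF PN2, 87.6 in P PN2, 36.2 in DF E17 and 38.2 in P E17. In this mean both PN2 columns were above both E17 columns, which lay around the 5th percentile of all normalised signals, 37.9. Padi4 was 3.96-fold higher in the follicle at PN2 than at E17 (log2 1.98, or 1.92 with dim signals raised to that percentile) and 2.29-fold higher in P PN2 than in P E17 (log2 1.20). Its probes did not give like values. Probe A_51_P255875 read 267 in DF PN2 and 168 in P PN2 against 28.6 in DF E17 and 36.8 in P E17, while A_52_P278047 read 76.8 and 45.6 against 45.8 and 39.6 in the same order. As log2 ratios of DF PN2 over DF E17 that is 3.22 and 0.75, an SD of 1.75 between the probes. For P PN2 over P E17 the ratios were 2.19 and 0.20, an SD of 1.41. The second probe alone was short of 2-fold in both comparisons.

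Mcpt8 is a granule protease that marks basophils in the mouse. The signal of its probe was 910.0 in DF PN2, 129.7 in P PN2, 148 in DF E17 and 295 in P E17. DF PN2 stood alone at the top, and P E17 was the next column. Mcpt8 was 6.13-fold higher in the follicle at PN2 than at E17 (log2 2.62), placing it at rank 58 of 14238 genes, and 7.02-fold higher in DF PN2 than in P PN2 (log2 2.81). In the papilla it was lower at PN2 (log2 -1.18). Follicle over papilla at E17 was -0.99, just short of the limit.

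Hdc, histidine decarboxylase, makes histamine and is used by mast cells, basophils and some other myeloid cells. Its signal was 354 in DF PN2, 103 in P PN2, 391 in DF E17 and 114 in P E17. The follicle columns were both above the papilla columns, and the stages of a tissue lay within the between-probe SD of each other. Hdc was 3.43-fold higher in follicle than in papilla at PN2 and again at E17 (log2 1.78 each), and the difference of these ratios was -0.00. Its log2 ratio of DF PN2 over DF E17 was -0.14. Among the 10 members it was the one higher past 2-fold in the follicle at both stages.

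For comparison, the basophil and mast cell list held 11 genes, of which 4 could be compared, and 0 were higher and 1 was lower past 2-fold in the follicle at PN2 than at E17 (median log2 ratio 0.52). The lower one was Cma1, a mast cell chymase, with signals of 187 in DF PN2, 73.4 in P PN2, 406 in DF E17 and 103 in P E17. Cma1 was thus higher in the follicle at both stages, with log2 ratios of 1.35 at PN2 and 1.99 at E17. Kit, the stem cell factor receptor of mast cells and progenitors, had a stage ratio of 0.44 in the follicle, Tpsb2, a mast cell tryptase, 0.60, and Hpgds, a prostaglandin synthase, 0.79. Fcer1a, the IgE receptor chain that basophils and mast cells share, stayed under a signal of 100 in all 4 columns.

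Myb had 4 probes and a mean signal of 283 in DF PN2, 454 in P PN2, 52.9 in DF E17 and 735 in P E17. DF E17 was by far the lowest column. Myb was 13.9-fold lower in follicle than in papilla at E17 (log2 -3.80) and stood at rank 14216 of 14238 genes, counted from the highest ratio. It was 5.35-fold higher in the follicle at PN2 than at E17 (log2 2.42), and P PN2 over P E17 was -0.70. At PN2 follicle over papilla was -0.68, inside the between-probe SD.

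The Myb probes shared a direction but not a size in the follicle. Probe A_51_P375538 read 1629 in DF PN2, 5054 in P PN2, 45.5 in DF E17 and 4276 in P E17, a log2 stage ratio of 5.16 in the follicle. Probe A_52_P444839 read 333, 556, 134 and 908 in the same 4 columns, a ratio of 1.31. The remaining probes gave 1.91 and 1.29, with DF E17 signals of 35.4 and 36.3 that lie under the 5th percentile of all signals. For DF E17 over P E17 the 4 probes ran between -6.55 and -2.76, and for DF PN2 over P PN2 between -1.63 and 0.20. Thus all 4 probes put DF E17 lowest, while they did not give 1 sign between the tissues at PN2.

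Cd79a, the Ig-alpha signalling chain of the B cell and pre-B receptors, had a signal of 322 in DF PN2, 32.9 in P PN2, 87.5 in DF E17 and 45.4 in P E17. The follicle was above the papilla at both stages, and P PN2 lay below 37.9, the 5th percentile of normalised signals. Cd79a was 9.78-fold higher in DF PN2 than in P PN2 (log2 3.29, or 3.08 with the dim signal raised to that percentile). It was 3.68-fold higher in the follicle at PN2 than at E17 (log2 1.88). At E17 follicle over papilla was 0.95, just short of the limit.

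Cd79b, the Ig-beta chain that pairs with Cd79a, did not share that profile. Its signal was 1088 in DF PN2, 2941 in P PN2, 393 in DF E17 and 1313 in P E17. The papilla was above the follicle at both stages, and PN2 above E17 in both tissues. Cd79b was 2.70-fold lower in follicle than in papilla at PN2 (log2 -1.43) and 3.34-fold lower in follicle than in papilla at E17 (log2 -1.74). PN2 over E17 was 1.47 in the follicle and 1.16 in the papilla. Without normalisation the follicle over papilla ratio at PN2 and the papilla stage ratio of Cd79b were short of 2-fold. For the 2 chains of 1 receptor, follicle over papilla at PN2 thus had opposite signs, each read by 1 probe.

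Igll1, the lambda5 part of the surrogate light chain, had a mean signal over 2 probes of 743 in DF PN2, 173 in P PN2, 181 in DF E17 and 239.5 in P E17. In this mean DF PN2 stood alone, and the other 3 columns were closer together, each within the pooled between-probe SD of the next. Igll1 was 4.10-fold higher in the follicle at PN2 than at E17 (log2 2.04) and 4.30-fold higher in DF PN2 than in P PN2 (log2 2.11). Probe A_52_P493519 carried most of this, reading 2031.5 in DF PN2 and 231 in P PN2 against 213 in DF E17 and 219 in P E17. Probe A_52_P273394 read 272 and 129.0 against 154 and 261.5 in the same order, so its DF PN2 was close to its P E17. The follicle stage ratios of the probes were 3.25 and 0.82, an SD of 1.72 between them. The second probe alone was thus short of 2-fold.

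**Figure D2:**
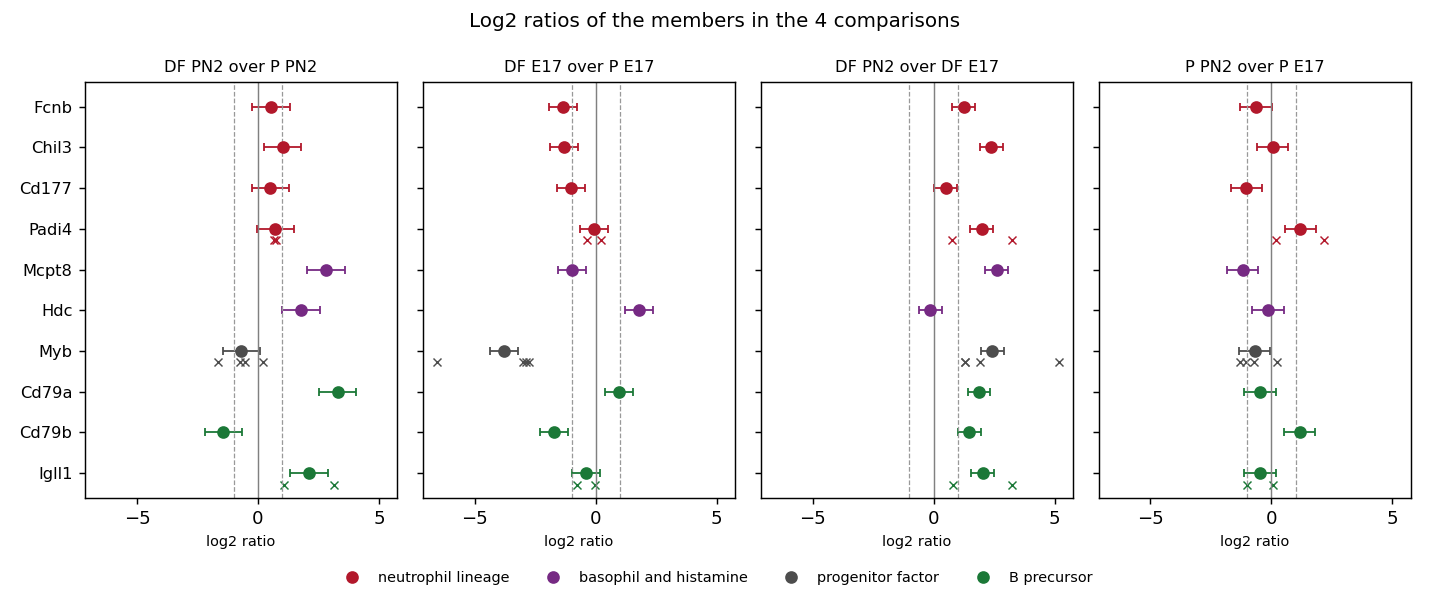
Log2 ratio of each member (filled circle, mean over probes) in the follicle over papilla comparisons of PN2 and E17 and the PN2 over E17 comparisons of follicle and papilla, with bars for the pooled between-probe SD of that comparison, crosses for single probes of genes with several, and dashed lines at 2-fold. In DF PN2 over DF E17, 8 members lie to the right of the dashed line and Hdc and Cd177 do not.

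The stage difference of the follicle over papilla ratio, PN2 minus E17, was over 1 on the log2 scale for 7 members and under -1 for 0, against 8.12% and 9.14% of all genes. It reached 3.80 for Mcpt8, 3.12 for Myb, 2.51 for Igll1, 2.34 for Cd79a, 2.33 for Chil3, 1.90 for Fcnb and 1.53 for Cd177. Padi4 had 0.79, Cd79b 0.31 and Hdc -0.00. The comparisons share columns, so this value and the stage ratios are not separate pieces of evidence. Chil3 was the member past 2-fold in opposite directions at the 2 stages.

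**Figure D3:**
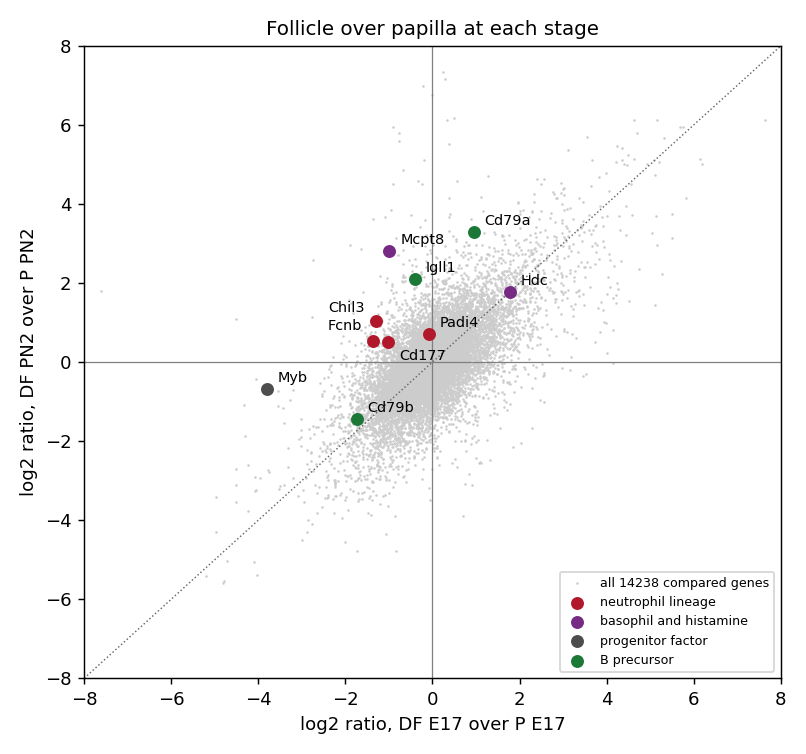
Log2 ratio of follicle over papilla at PN2 (vertical axis) against that at E17 (horizontal axis) for 14238 genes in grey and the 10 members in colour, with a dotted line where both ratios are equal. Hdc and Cd79b lie near the line, and Mcpt8, Myb, Igll1, Cd79a and Chil3 lie more than 2 log2 units above it.

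Genes of the same lineages were counted from lists chosen with earlier results of these data known, each described by its counts and its median. For the primary granules, which fill first, 2 of 5 genes could be compared and both were higher past 2-fold in the follicle at PN2 than at E17. Mpo, myeloperoxidase, had signals of 996 in DF PN2, 169.9 in P PN2, 110.1 in DF E17 and 123 in P E17, a follicle stage ratio of 3.18. Ctsg, cathepsin G, had 214, 115, 78.9 and 138 in the same columns, a ratio of 1.44.

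Secondary and tertiary granule genes were higher past 2-fold in the follicle at PN2 than at E17 in 8 of 9, with a median of 4.75. Retnlg, a resistin-like secreted protein, had a ratio of 7.32, Ltf, lactoferrin, 7.05 and Ngp, a neutrophil granule protein, 6.62. At the low end were Cybb, an oxidase subunit, with 2.89 and Mmp9, which osteoclasts also make, with -0.23. Among 6 mature neutrophil genes 4 were higher and 0 lower, from S100a9 at 8.26, Cxcr2 at 2.25 and Clec4d at 2.23 to Cxcr4 at 0.83 and Fpr2 at -0.38. The 4 neutrophil members had a median of 1.62. The primary granule genes and the members thus had smaller ratios than the median secondary granule gene, without a test of that difference.

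Of the myeloid transcription factors, 5 of 8 could be compared and 0 were past 2-fold between the stages of the follicle (median 0.48). Their ratios were 0.22 for Spi1, which encodes PU.1, 0.27 for Cebpb, 0.48 for Runx1, 0.62 for Cebpa and 0.67 for Irf8. Spi1 was higher in the follicle than in the papilla at both stages, with log2 ratios of 2.42 at PN2 and 3.47 at E17.

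In the pre-B receptor and B lineage list, 8 of 15 genes could be compared, and 4 were higher and 0 lower past 2-fold in the follicle at PN2 than at E17 (median 0.95). Vpreb1, partner of Igll1 in the surrogate light chain and its next gene in the RefSeq order, had signals of 708 in DF PN2, 117 in P PN2, 75.8 in DF E17 and 100.2 in P E17. Its stage ratio in the follicle was 3.23. Vpreb3 had 1.79 and Blnk, the adaptor downstream of the receptor, 1.23, while Syk, a kinase of many blood cells, had -0.06 and Dntt, which adds bases at gene segment joins, -0.27. DF PN2 over P PN2 was 2.60 for Vpreb1, 2.11 for Igll1 and 3.29 for Cd79a.

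Among B lineage transcription factors 7 of 9 could be compared, and 2 were higher and 0 lower past 2-fold in the follicle at PN2 than at E17 (median 0.43). Pou2af1, a B cell coactivator, had signals of 575 in DF PN2, 85.6 in P PN2, 85.9 in DF E17 and 94.1 in P E17, a ratio of 2.74. Ikzf1, an early lymphoid factor, had a ratio of 1.94. Pax5, which fixes B cell identity, had dim signals of 103, 58.8, 75.9 and 62.9 in the same columns and a ratio of 0.43. The ratios were 0.51 for Tcf3, 0.42 for Lef1, 0.21 for Foxo1 and -0.26 for Ebf1, all of which are also used outside the B lineage.

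**Figure D4:**
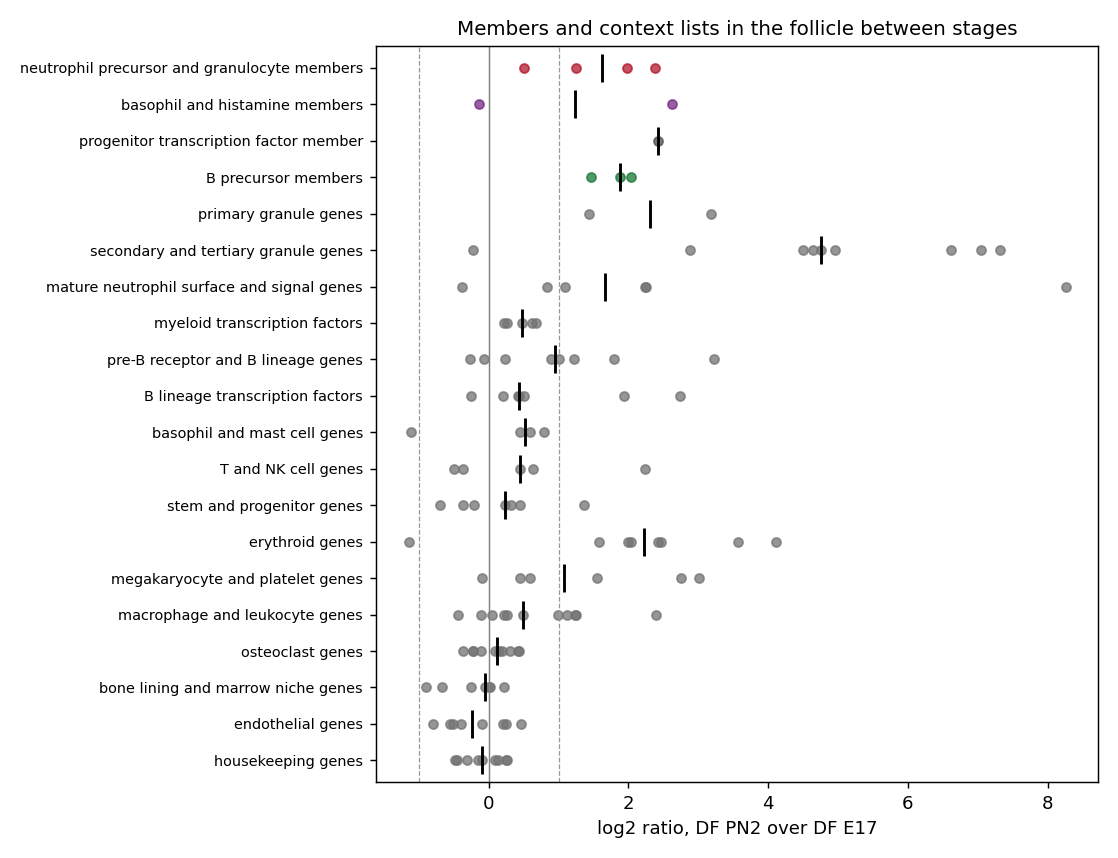
Log2 ratio of DF PN2 over DF E17 of each compared gene (points) and the median (black bar) of the member groups in colour and of the context lists in grey, with dashed lines at 2-fold. Secondary and tertiary granule genes have a median of 4.75 and erythroid genes 2.23, while osteoclast, marrow niche, endothelial and housekeeping genes lie within 2-fold.

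Markers of other cell types moved with these genes to different extents. Erythroid genes were higher past 2-fold in the follicle at PN2 than at E17 in 7 of 8 (median 2.23), led by Slc4a1 at 4.12, Ermap at 3.57 and Epb42 at 2.46, with Alas2 at 1.58 and the embryonic globin Hbb-y lower at -1.15. Their summed signal was 8768 in DF PN2, 1257 in P PN2, 1579 in DF E17 and 1964 in P E17. Megakaryocyte and platelet genes were higher in 3 of 6 (median 1.08), with Pf4 at 3.01, Gp9 at 2.75, Itga2b at 1.56, Treml1 at 0.45 and Gp6 at -0.09. T and NK cell genes were higher in 1 of 5 (median 0.44, and -0.36 without the filter on low signals). They ran from Cd3d at 2.23, Il2rb at 0.63 and Cd3g at 0.44 down to Cd4 at -0.36 and Thy1 at -0.50. Cd3d was read by 1 probe, and its DF E17 signal of 37.2 lay under the 5th percentile, 37.9. Raised to that percentile, its ratio was 2.20. Stem and progenitor genes were higher in 1 of 7 (median 0.24). The highest were Tal1 at 1.37, Kit at 0.44 and Hoxa9 at 0.32, and the lowest Cd34 at -0.37 and Mecom at -0.69. The part of these cell types in the members' values was not tested.

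Macrophage and leukocyte genes were higher past 2-fold in the follicle at PN2 than at E17 in 4 of 11 and lower in 0 (median 0.49). They ran from Lyz2 at 2.39, Ptprc at 1.25 and Aif1 at 1.23 down to Adgre1 at -0.11 and Cd68 at -0.44. Their summed signal was 42546 in DF PN2, 6113 in P PN2, 33422 in DF E17 and 4094 in P E17. In this sum the follicle was above the papilla at both stages. By gene, 7 of 11 were higher past 2-fold in follicle than in papilla at PN2 and 8 of 11 at E17. Osteoclast genes were past 2-fold between the follicle stages in 0 of 10 (median 0.12), and all 10 were higher in follicle than in papilla at PN2 and at E17. Bone lining and marrow niche genes were past 2-fold between the follicle stages in 0 of 7 (median -0.06). They ran from Lepr at 0.22, Vcam1 at 0.02 and Cxcl12 at 0.00 down to Kitl at -0.67 and Foxc1 at -0.90. Endothelial genes were past 2-fold in 0 of 8 (median -0.25) and housekeeping genes in 0 of 9, with ratios from -0.48 to 0.26.

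The genes with the profile most like the mean of the neutrophil members over the 4 columns, by Euclidean distance of centred log2 signals, were Ctu2 at 0.18, Skiv2l at 0.19, Ctsg at 0.21, H2ac20 at 0.24 and Exd1 at 0.25. The members themselves lay between 0.52 for Fcnb and 1.07 for Padi4 from their own mean. For the B lineage members the nearest genes were Mxra7 at 0.07, Plek at 0.16, Kctd13 at 0.19, H2-Ab1 at 0.20 and Spic at 0.20. Igll1 lay at 0.58 from that mean, Cd79a at 1.70 and Cd79b at 2.20, so neither Cd79a nor Cd79b lay close to it. With 4 columns many genes come close by number alone, and likeness here says nothing of shared control.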

How the data were processed

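The 4 arrays were grouped by their titles. The authors deposited linear signal intensity per probe, in a pair of columns per array, and a value table of log10 ratios; the scans went through Agilent Feature Extraction 8.5.1.1, per the submitters' processing notes. Background subtraction and normalisation are not given in the sources used here. Each deposited log10 value equals log10 of the quotient of both signals with 1 fixed offset added on every array, to a tolerance of 0.001 in at least 99.9934% of probes. On the log2 scale the offsets lay between -0.09 and 0.87. The array titled P PN2 over P E17 has a second column with the heading and the values of DF E17, so P E17 was taken from the DF E17 and P E17 array. The deposited ratio of that file correlates with P PN2 over P E17 signals (r over all probes 0.999995) and less with P PN2 over DF E17 (r 0.449). A tissue and stage appears under different dye labels in different files, and column headers were followed.

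Of 30146 probes, 25962 had 1 symbol in the platform annotation and 4184 had none and were left out. Signals were turned to log2 without a pseudocount, quantile normalised across 4 columns, and each gene was given the mean of its probes. Genes whose highest normalised signal was under 100 were left out. This ran in Python 3.11.15 with numpy 2.4.6 and pandas 2.3.3. The pipeline was tested on simulated data. The changes put in were larger than 2-fold and only in brighter genes, so dim members and calls near the limit were not covered. Alternatives were other scalings, the deposited ratios, a floor at the 5th percentile, other filters, other ways to combine probes, a 4-fold limit and lists without shared genes. The number of arrays, with 1 distinct signal column per tissue and stage, limits the precision.

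The members and lists were chosen with earlier results of these data known. Named were all members with every probe, from each list the 3 highest and 2 lowest DF PN2 over DF E17 ratios among compared genes. Added were the compared transcription factors of the 2 factor lists, housekeeping genes as a range, and the 5 genes nearest each of 2 mean profiles. For osteoclast and endothelial genes, only the counts and the median are printed. Fcer1a, the tissue ratios of Spi1 and Cma1, and the tissue identity genes were added outside that rule. All 10 members matched RefSeq by gene number, with the same symbol.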

Additional observations from a re-analysis of the deposited data

Results flagged for a closer look

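In Chil3 the follicle over papilla ratio was past 2-fold in opposite directions at the stages, with a log2 ratio of 1.03 at PN2 and -1.30 at E17, a difference of 2.33. In Mcpt8 the PN2 over E17 ratio was past 2-fold in opposite directions in the tissues, 2.62 in the follicle and -1.18 in the papilla, a difference of 3.80. Each value rests on 1 probe and 1 signal column per tissue and stage, which may be a single hybridisation or a mean, and neither difference was tested.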

How the results depend on the processing

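In the follicle, members higher at PN2 than at E17 numbered 8 under every scaling and probe rule tried. The share of all genes ran from 2.4% without normalisation to 4.96% with the deposited ratios. The probe rules were no check on this count, as 7 members have 1 probe. For the 2 probes of Padi4 and of Igll1 the median is the mean, and the brighter probe had the larger ratio. Their second probes, at 0.75 and 0.82, were short of 2-fold. With a highest signal of at least 200, the members higher numbered 7 (3.39% of all genes), as Padi4 was left out. At a 4-fold limit there were 4, against 0.794% of all genes. At 4-fold the other counts, each with the share of all genes, were 3 higher (3.63%) and 0 lower (2.84%) for DF PN2 over P PN2, 0 higher (2.89%) and 1 lower (1.36%) for DF E17 over P E17, and 0 higher (0.723%) and 0 lower (0.33%) for P PN2 over P E17. Without normalisation DF PN2 over P PN2 had 0 lower, against 12% of all genes, and P PN2 over P E17 had 0 higher, against 0.84%, and 7 lower, against 36.7%. With each column centred on its median, P PN2 over P E17 had 1 higher (5.38% of all genes) and 1 lower (4.65%). The deposited ratios also gave 1 higher (6.88%) and 1 lower (3.57%). With a highest signal of at least 200, P PN2 over P E17 had 1 higher (6.62%). With the probe of highest mean signal in place of the mean, DF PN2 over P PN2 had 2 lower (15.7%). Lower counts of DF E17 over P E17 were 6 without normalisation (21.1%), 6 with median centring (12.3%) and 4 with the deposited ratios (8.08%). The main count was 5 (10.1%). The stage difference of the tissue ratio had 8 members over 1 under the same 3 settings, in place of 7 (8.12%). The share of all genes was then 23.6% without normalisation, 8.2% with median centring and 8.01% with the deposited ratios. With the probe of highest mean signal that difference also had 8 members over 1 (9.62%).

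Without normalisation the log2 ratios of all genes had a median of 0.17 between tissues at PN2, -0.36 between tissues at E17, -0.24 between stages in the follicle and -0.82 between stages in the papilla, and 0.53 for the stage difference of the tissue ratio. In the same order, the share of genes past 2-fold that were higher was then 60.8%, 22.7%, 19.2%, 2.24% and 88.0%, against 48.9%, 50.9%, 48.5%, 56.3% and 47.0% after quantile normalisation. With the deposited ratios it was 60.9% between tissues at E17 and 65.8% between stages in the papilla. Over all alternatives, 23 of 395 member ratios moved beyond the between-probe SD and 0 called ratios turned sign. Many of the 395 could not move. Filters leave ratios as they are, and probe rules cannot change the 7 members with 1 probe. Of 90 member counts, 16 changed by more than 1.5-fold, or to or from 0. Of 765 list medians, 37 moved beyond the between-probe SD. Depth is limited for dim members, since DF E17 and P E17 of Padi4 and P PN2 of Cd79a lay around the 5th percentile of signals, 37.9. A search of member proteins for the tyrosine activation motif was not run, as no protein sequences were used here. No paired analysis was possible because each tissue and stage has 1 signal column.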
